A study of Arabidopsis thaliana with 14 samples.

Results

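N6-methyladenosine (m6A) was mapped in wild-type Arabidopsis thaliana seedlings (accession Col0) by antibody enrichment of fragmented poly(A) RNA, in 2 replicates called separately by the authors. The map described here consists of the nuclear peaks of replicate 1 that a peak of replicate 2 overlapped by at least 1 nt: 11410 of 12620 peaks (90.4%). Of the 12352 nuclear peaks of replicate 2, 11309 (91.6%) lay on a peak of replicate 1. The m6A seedlings were 14 days old. The other libraries used came from 12-day seedlings: A-seq2 libraries, which read RNA 3′ ends at the poly(A) tail, of Col0 and of the cpsf70 mutant, and CLIP libraries, which read RNA crosslinked to a protein, from a CPSF70 overexpression line pulled down with anti-FLAG beads, with 2 replicates a group. The labels name neither the mutant allele nor the promoter of the overexpressed protein, and no label says that replicates were separate plantings, so the p-values rest on the spread between these libraries alone, and that spread may be technical.

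m6A is placed on mRNA during transcription by a writer complex whose catalytic subunits in Arabidopsis are MTA and MTB, with partners such as FIP37 and VIRILIZER. Proteins with a YTH domain, among them the ECT family and the long form of the polyadenylation factor CPSF30, bind the mark. In plants it is known mainly from the 3′ end of transcripts, and it bears on mRNA stability, on the choice of poly(A) site and on development.

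Each peak carries an interval, a fold enrichment and a −log10 p-value, which are the authors' own values for that peak. The peak tables give no strand and no read counts, so the depth behind a peak is unknown. A gene was called measured where it was protein-coding, had a direction readable from poly(A) tags at its ends, and had a poly(A) cluster in both Col0 tables. There were 9487 such genes. Levels are the summed TPM of a gene's poly(A) clusters, from 12-day rather than 14-day seedlings. In whole seedlings, fewer cells of a type and less RNA per cell cannot be told apart. Of the markers of seedling tissues, 18 of 20 light-harvesting genes had clusters in each Col0 table, with summed levels of 56295 and 43562 TPM. Of the root markers 3 of 7 had clusters, summing to 65.0 and 50.8 TPM, and of the seed storage genes 0 of 8. Since m6A tables of wild type alone were analysed here, the map allows no test, and its values are descriptions.

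Most measured genes carried the mark, and nearly always at a single place. A shared peak was present in 6814 of the 9487 measured genes (71.8%), a peak in 1 replicate only in 668 (7.04%), and no peak in either replicate in 2005 (21.1%). Of the genes with a shared peak, 6594 (96.8%) held 1 peak, 216 held 2 and 4 held 3, so that 3.23% held more than 1. With all peaks of replicate 1 in place of the shared ones, 8.33% did. Of the 11410 shared peaks, 11228 (98.4%) had their midpoint in a protein-coding gene and 79 lay outside any annotated gene. Many more genes carry m6A than could be measured for poly(A) level: 4508 of the 17945 protein-coding genes that were not measured held a shared peak, 1581 of them with no poly(A) cluster of either strand in or near the gene. Among other RNA classes with poly(A) clusters, a shared peak was found in 31 of 188 long noncoding RNA genes (16.5%) and in 0 of 127 small nucleolar RNA genes. All but 2 of these 31 long noncoding RNAs overlap a protein-coding gene at the peak, and the tables without strand cannot assign such a peak to one of them.

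The replicates placed the shared peaks nearly identically and scaled them differently. The midpoints of overlapping peaks lay a median of 17 nt apart, and the overlap covered a median of 97.6% of the replicate 1 peak. Peaks were 369 nt long at the median in replicate 1 and 370 nt in replicate 2, with quartiles of 281 and 486 nt in replicate 1. The median fold was 4.47 in replicate 1 and 6.03 in replicate 2, and the fold was higher in replicate 2 at 9768 of the 11410 peaks (85.6%). Across peaks, the log2 folds of the replicates had a Pearson correlation of 0.85, a description over peaks that share 2 libraries.

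The peaks found in 1 replicate were weaker and differed between the replicates. The 1210 peaks of replicate 1 alone had a median fold of 1.94, and the 1043 of replicate 2 alone 3.79, with median lengths of 254.5 and 197 nt. In measured genes the replicate 1 peaks lay at a median of 42.2% of the gene length, with 44.9% of them between 10 and 40%, in genes with a median level of 51.6 TPM. Those of replicate 2 lay at 88.1%, in genes with a median of 8.98 TPM.

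Shared peaks sat close to the 3′ end. Measured along the gene from its 5′ end, the midpoints had a median of 90.0% of the gene length, with quartiles of 85.3 and 93.4%. Peaks whose midpoint fell in 2 measured genes were placed in both, which gave 7038 placements. Of these, 6098 (86.6%) lay in the last 20% of the gene, 919 (13.1%) between 10 and 80%, and 21 (0.30%) in the first 10%. The same view of each replicate's full set had 0.62% and 0.40% in the first 10%, and 90.8% as the median place in replicate 2 against 89.2% in replicate 1.

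**Figure D1:**
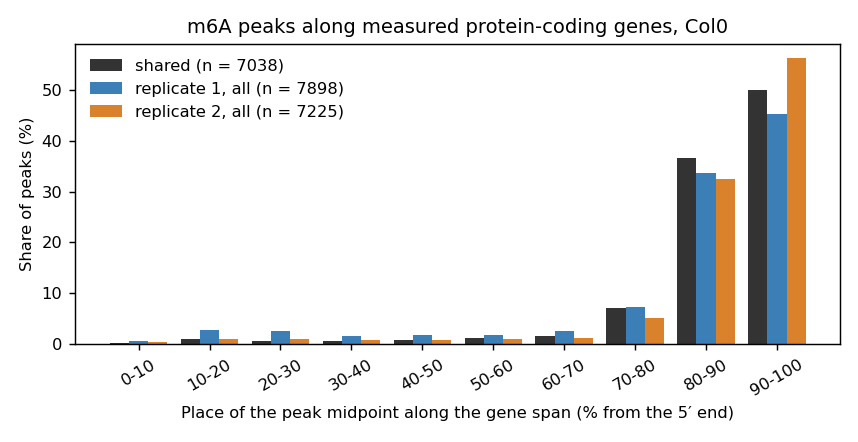
Share of m6A peaks (y axis, %) by the place of the peak midpoint along the gene in steps of 10% of its length from the 5′ end (x axis), for shared peaks and for all peaks of each replicate, in measured genes. The last bin holds 3522 of the 7038 shared peaks, and replicate 1 has more peaks than replicate 2 between 10 and 30%.

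In nucleotides, the distance to the 3′ end varied little with gene length. The midpoint lay a median of 272 nt before the annotated gene end, and 165 nt upstream of the gene's strongest poly(A) cluster, with quartiles of 116 and 222 nt. It was within 500 nt upstream of that cluster for 6068 of 7038 placements (86.2%), and 4089 peaks (58.1%) extended from upstream over the cluster itself. Across 10 equal bins of gene length, whose median lengths ran from 946 to 5776 nt, the median distance to the gene end went from 239 to 291 nt, while the median relative place went from 74.8 to 95.2%.

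**Figure D2:**
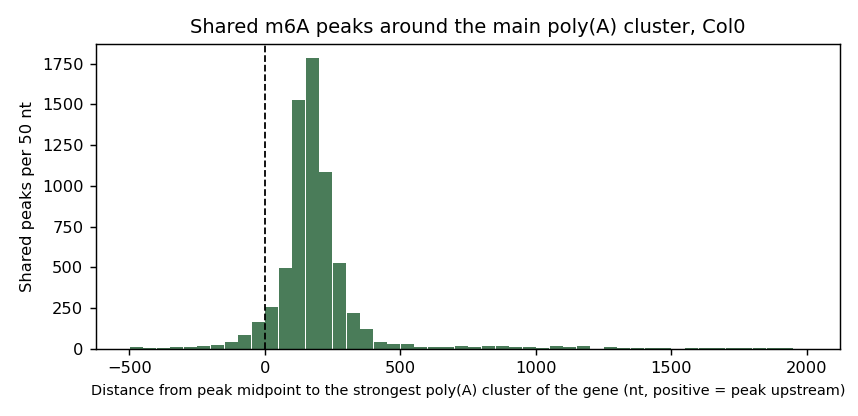
Number of shared peaks per 50 nt (y axis) by the distance in nt from the peak midpoint to the strongest poly(A) cluster of the gene (x axis, positive where the peak is upstream, drawn from -500 to 2000 nt). The highest bin, 150 to 200 nt upstream, holds 1782 peaks.

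Peaks near gene starts were rare, and the inferred direction of some genes may be wrong. The direction read from tags went against older clone names that record a strand in 2 of 143 genes (1.4%). That is a share of genes, not of peaks, and the part of wrong directions in these peaks was not tested. Of the 21 genes with a peak in the first 10%, 5 also had one in the last 20%. The start peak of 3 lay within 500 nt of the 3′ end of another gene. That of 8 more lay within 500 nt of an end of a gene with no direction. Of these 21 peaks, 5 had a poly(A) cluster of the opposite strand within 500 nt of the inferred start. One of the 5 is GCN2 (AT3G59410), whose kinase phosphorylates the initiation factor eIF2 under amino acid shortage, with a peak of 12.0-fold and 19.4-fold at chr3:21958914-21959368. For MOS1 (AT4G24680), which modifies plant immunity, and ABCG37 (AT3G53480), a transporter of auxin-like compounds, no such cluster was listed. Their peaks had folds of 3.98 and 6.6, and of 3.42 and 7.41. GCN2, MOS1 and ABCG37 were chosen after their values were seen.

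Genes with 2 peaks usually added a weaker mark upstream of the usual one. In the 216 such genes the peaks lay a median of 928.5 nt apart, at median places of 38.8 and 90.3%. The downstream peak was in the last 20% of the gene in 192 of them (88.9%), and it had the higher fold in both replicates in 168. Of the genes with the most shared peaks, AT1G58602 held 9, in a span of 19695 nt with no assigned direction. GTB1 (AT1G65440), a transcription elongation factor of the SPT6 type, AT4G34540, AT1G76200 and AT1G20920, named RCF1 in the reference, held 3 each. In GTB1 the strongest lay at 94.2% of the gene with folds of 7.36 and 6.64. In AT1G76200 it reached only 2.63 and 2.77.

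The longest peaks covered unusual loci. The longest was 7612 nt at chr4:9483854-9491465, with folds of 5.30 and 7.67, and was drawn almost identically in replicate 2 with 7534 nt. It spans the disease resistance gene RPP4 together with AT4G16857 and a pseudogene. The next were 3290 nt over AT3G06365, annotated as a miscellaneous RNA, with folds of 2.04 and 1.4, and 2429 nt over the pseudogene AT1G20390, with folds of 5.15 and 13.5.

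The strongest marks were mostly in genes whose poly(A) level was not measured. Of all 27432 protein-coding genes 17945 were not measured, and of the 11322 with a shared peak 4508. The 20 genes with the highest mean fold had folds from 9.82 to 16.8 in replicate 1 and from 18.0 to 27.3 in replicate 2, higher in replicate 2 in all 20. Of these, 14 were not measured, mostly because no direction could be read. A direction needed at least 3 TPM at the gene ends, so their level is unknown and may be low. They include IBM1 (AT3G07610), a histone H3K9 demethylase that protects genes from DNA methylation, at 13.5 and 25.8, SOS2 (AT5G35410), the kinase of the salt overly sensitive pathway, at 13.5 and 21.8, and ADA2A (AT3G07740), a histone acetyltransferase cofactor, at 13.6 and 23.1. The highest of all was AT4G38120, with 15.5 and 27.3 at chr4:17888471-17888853. Among the 6 measured ones, DRM2 (AT5G14620), the de novo DNA methyltransferase of the RNA-directed pathway, had 15.0 and 18.0 at chr5:4715227-4715570, at levels of 5.1 and 4.0 TPM. ALF4 (AT5G11030), needed for lateral root formation, had 13.5 and 22.0 at 7.33 and 4.0 TPM. AT3G17740, also among the 6, had 10.7 TPM in replicate 1 and 863 in replicate 2.

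Among measured genes, peaks in genes of higher level had lower folds, while the share of marked genes differed little. From the lowest to the highest of 10 bins of level, whose medians ran from 4.11 to 156 TPM, the median fold went from 5.24 to 2.72 in replicate 1 and from 7.46 to 2.79 in replicate 2. The median peak length went from 354 to 469 nt, and the share of peaks in the last 20% of the gene from 93.8 to 58.6%. The share of genes with a shared peak stayed between 63.3 and 75.8% in all 10 bins. The fold is an enrichment and gives no share of modified molecules. The part of level in the size of the fold was not tested.

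**Figure D3:**
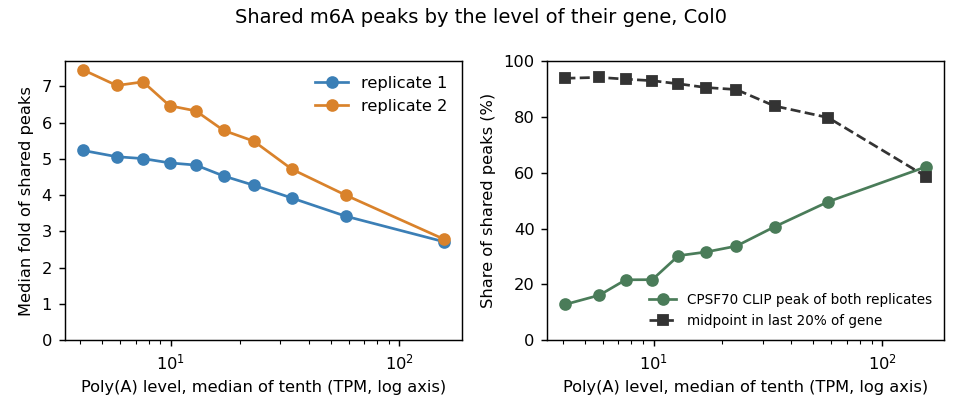
Shared m6A peaks in 10 bins of the poly(A) level of their gene (x axes, median TPM, log axis): the median of the authors' fold in each replicate (left), and the share of peaks in the last 20% of the gene and with a CPSF70 CLIP peak of both replicates (right, %). Median fold ends at 2.72 and 2.79 in the highest bin, where 62.2% of peaks carry CLIP.

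Among measured genes, length separated marked from unmarked ones more than level did. The share with a shared peak was higher in every step of length, from 27.4% of the genes up to 1202 nt to 93.9% of those from 4572 nt. Genes with a shared peak had a median length of 2620 nt, genes with no peak 1681 nt. Their median levels were 15.5 and 12.1 TPM. The difference by length held within level: among genes of low, middle and high level, 37.6, 51.5 and 58.2% of short genes carried a shared peak, and 86.5, 88.9 and 89.3% of long ones. The length of the gene here includes introns, since exons were not used. Measured genes have clusters in both Col0 tables, so the lowest levels are left out of this comparison. Of 11290 protein-coding genes with no cluster in either table, 1581 (14.0%) held a shared peak.

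**Figure D4:**
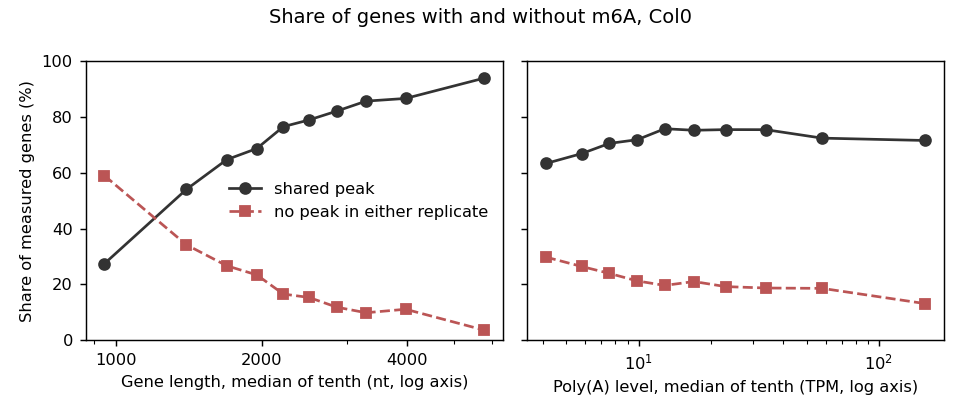
Share of measured genes (y axis, %) with a shared peak and with no peak in either replicate, in 10 bins of gene length (left, median nt, log axis) and of poly(A) level (right, median TPM, log axis). The share with a shared peak runs from 27.4 to 93.9% over length and stays between 63.3 and 75.8% over level.

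Gene functions differed widely in how often they carried m6A. Of 53 gene lists, 43 had at least 5 measured genes, and 25 of these had a larger share of marked genes than the 71.8% of all measured genes. The background of genes with no peak in either replicate was 21.1%. Since the share of marked genes varies with length, counts below are set beside the share of all measured genes in the length bin that holds the list's median length, called the length background.

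**Figure D5:**
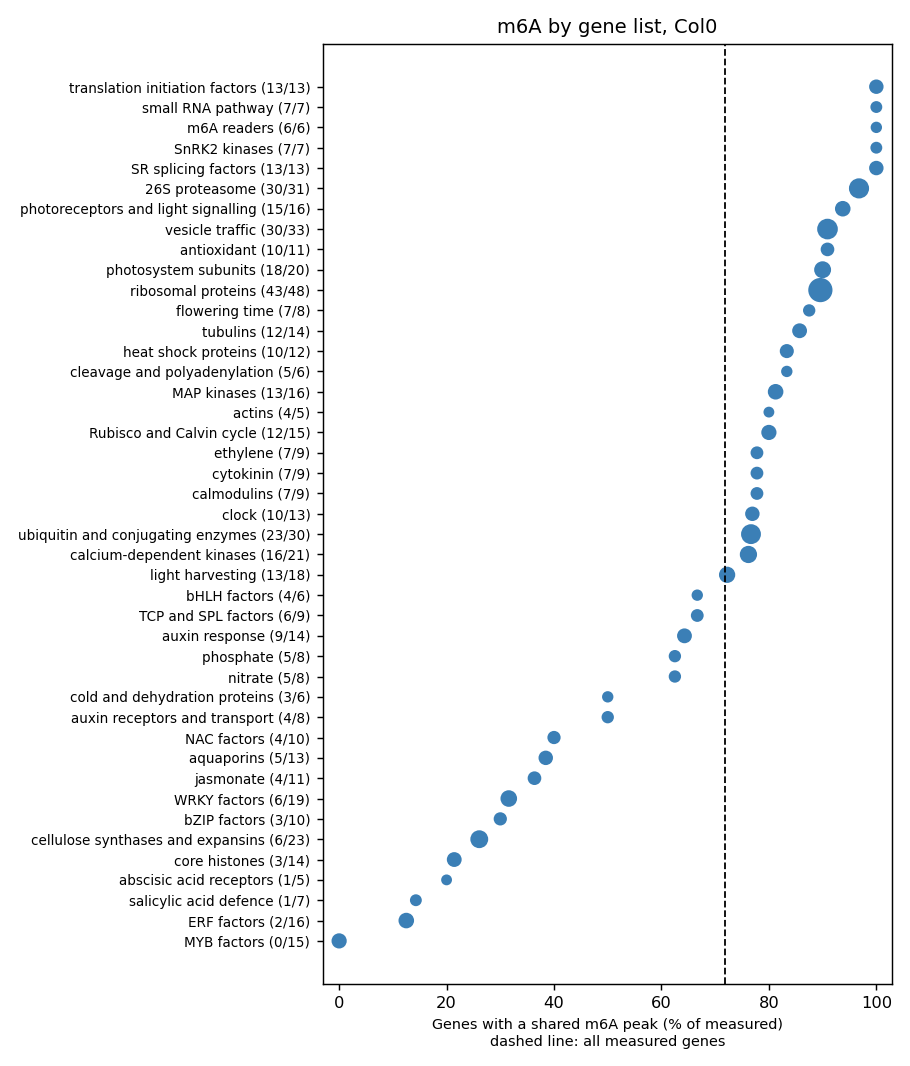
Share of measured genes with a shared m6A peak (x axis, %) for 43 gene lists with at least 5 measured genes (y axis, with the count marked of measured). Point area grows with the number of measured genes, and the dashed line is the 71.8% of all measured genes. MYB factors stand at 0 of 15 and SR splicing factors at 13 of 13.

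Genes of the m6A machinery held shared peaks at counts close to their length background, which was 86.6% for the writers, 85.7% for the readers and 93.9% for the cleavage and polyadenylation genes. All 4 measured writers had a shared peak. These were MTA (AT4G10760), the catalytic subunit, at chr4:6619792-6620148 with folds of 4.75 and 4.54, FIP37 (AT3G54170) at 5.79 and 10.7, EMB1691 (AT4G09980), the reference's name for MTB, at 7.5 and 7.87, and EMB2016 (AT3G05680), its name for VIRILIZER, at 3.59 and 7.30. FIO1, which methylates the U6 RNA, was not measured but held a peak too. Each of the 6 measured readers had one peak in the last part of the gene. ECT2 (AT3G13460), the best expressed with 66.5 and 59.8 TPM, had folds of only 2.62 and 2.08, and ECT1 (AT3G03950) had 6.25 and 9.46 at 8.61 and 6.62 TPM. The 6 other listed readers were not measured and all held a shared peak. Among them CPSF30 (AT1G30460) had one at chr1:10771295-10771669 with folds of 9.90 and 9.94, and a weaker one at chr1:10774413-10774646 with 3.36 and 3.83. Of the cleavage and polyadenylation genes, 5 of 6 measured were marked, and all 7 that were not measured. CSTF64 (AT1G71800), at 3.83 and 3.16 TPM, had no peak.

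Lists of RNA and protein handling ranged from all measured genes marked to 23 of 30. All 13 measured SR splicing factors, which bind exons and guide the spliceosome, had a shared peak, with folds from 2.64 to 6.22 in replicate 1 and from 3.44 to 8.76 in replicate 2. Their length background was 85.7%. So did all 13 translation initiation factors, among them the cap-binding EIF4E (AT4G18040) at 4.24 and 4.47, and all 7 measured genes of the small RNA pathway, where the length backgrounds were 82.1 and 93.9%. Of the genes that were not measured, 2 of 4 initiation factors and 6 of 7 small RNA genes held a shared peak, with none in eIF6B, EIF3G2 and DCL1. In the small RNA pathway DCL4 (AT5G20320), which dices trans-acting siRNA precursors, had 7.24 and 19.2, the RNA-dependent polymerase RDR6 (AT3G49500) 6.24 and 11.7, and AGO4 (AT2G27040) 5.78 and 11.7. The 26S proteasome had 30 of 31 genes marked, against a length background of 78.9%, and vesicle traffic 30 of 33, against 68.7%. Ubiquitin and its conjugating enzymes had 23 of 30, against 68.7%, and heat shock proteins 10 of 12, against 86.6%. The exception in the proteasome, the 20S subunit gene PBD1, had a peak in 1 replicate. Ribosomal proteins had 43 of 48, although their median length of 1568 nt lies where 64.7% of all genes carry a peak, and only 10 of the 48 kept a peak of at least 3-fold in both replicates.

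Light perception and signalling genes were marked in 15 of 16 cases, all in the last 20% of the gene, against a length background of 86.6%. Of those not measured, 4 of 7 held a shared peak. COP1 (AT2G32950), the ubiquitin ligase that represses light responses in the dark, had folds of 9.02 and 8.81 at chr2:13983188-13983528. The phytochrome gene PHYB (AT2G18790) had 5.65 and 6.46, and CRY2 (AT1G04400), a blue light receptor, 2.05 and 2.53. The phytochrome gene PHYE (AT4G18130) had no peak at 9.88 and 4.31 TPM, while PHYB had 12.8 and 8.00 TPM. Flowering time genes were marked in 7 of 8, against 86.6%. SVP (AT2G22540), a floral repressor, held 2 peaks. TEM1 (AT1G25560), a repressor of the florigen gene, had none at 54.5 and 42.5 TPM. In the clock, 10 of 13 were marked, below the length background of 85.7%, with GI (AT1G22770) at 5.42 and 5.57. The evening photoreceptor gene FKF1 (AT1G68050) had no peak, and ELF4 and PRR5 had one in 1 replicate.

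Transcription factor families varied from MYB, with no marked gene, to bHLH with 4 of 6 and TCP and SPL with 6 of 9. The length backgrounds were 76.5% for bHLH and 85.7% for TCP and SPL. Of 88 measured genes of 8 transcription factor families, 27 (30.7%) carried a shared peak, 14 a peak in 1 replicate and 47 none. MYB factors had 0 of 15, against a length background of 64.7%, and 14 of them had no peak in either replicate. Levels of the 15 ran from 3.51 to 101.5 TPM in replicate 1. Among them are MYB28 (AT5G61420), MYB29 and MYB34, which drive glucosinolate synthesis. MYB28 had 39.3 and 17.4 TPM. ERF factors had 2 of 16, against 54.0%, the marked ones being RAP2.7 and DREB2B. WRKY factors had 6 of 19, against 76.5%. These counts depend on the replicate: with all peaks of replicate 1 in place of the shared ones, ERF factors had 5 of 16, WRKY factors 9 of 19 and MYB factors 1 of 15. WRKY70 (AT3G56400), a regulator of salicylic acid defence, had no peak at 71.7 and 57.3 TPM. The transcription factor genes were mostly short, and it was among the short ones that their share lay far below that of all genes. A shared peak was in 10 of 67 among the shorter measured genes (14.9%, against 58.2% of all shorter genes) and in 17 of 21 among the longer (81.0%, against 85.4%). Shorter and longer are split at the median length of all measured genes. Of the MYB genes that were not measured, 8 of 100 held a shared peak.

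Abscisic acid receptors and the SnRK2 kinase family, part of which acts in the same pathway, had different counts, with no test of the difference. All 7 measured SnRK2 kinases were marked, against a length background of 82.1%. Among them OST1 (AT4G33950), which carries the abscisic acid signal, had 6.26 and 11.7. Of the abscisic acid receptors 1 of 5 was marked, against 54.0%, namely PYL7 at 2.18 and 2.86. PYL4 (AT2G38310) had none at 115 and 93.0 TPM. Of the genes that were not measured, 0 of 2 SnRK2 kinases and 2 of 9 receptors held a shared peak. The measured receptor genes were all among the shorter genes and the measured SnRK2 genes all among the longer. Jasmonate genes were marked in 4 of 11, against a length background of 78.9%. The receptor gene COI1 (AT2G39940) had 3.73 and 6.59, and the biosynthesis genes LOX2, AOS and OPR3 had no peak. LOX2 (AT3G45140) is 4108 nt long and had 71.7 and 91.4 TPM. Genes of salicylic acid defence were marked in 1 of 7 by shared peaks, against a length background of 78.9%. With either replicate alone, 2 of 7 were marked. Of the 9 that were not measured, 5 held a shared peak, namely NPR1, EDS16, EDS5, EFR and FLS2. The 1 measured gene with a shared peak was the immune receptor gene RPS4 (AT5G45250), with 2 peaks. PR1 (AT2G14610), PR5, BGL2 and EDS1 had none. The auxin response list had 9 of 14 marked, against a length background of 82.1%. In it, 6 of 7 ARF factors and 3 of 7 Aux/IAA repressors were marked, with 3 further Aux/IAA genes holding a peak in 1 replicate. This split of the list was made after its values were seen.

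Some lists were split by gene subfamily, also after their values were seen. Core histones carried a shared peak in 3 of 14 measured genes, against a length background of 27.4%. These 3, HTA8, HTA9 and HTA11, are the H2A.Z variant genes among those measured. HTA9 (AT1G52740) had 2.81 and 2.68, HTA8 (AT2G38810) 3.38 and 4.59, and HTA11 (AT3G54560) 1.91 and 2.38. The 11 other measured histone genes had no shared peak, and 4 of them had one in 1 replicate, so that replicate 1 alone gave 7 of 14. Of the 4 core histones that were not measured, HTA12 and HTR12, which are not H2A.Z genes, held a shared peak. HTA4 and HTR11 held none, though HTA4 had 2 peaks in replicate 2. Lengths of the 11 other measured histone genes ran from 715 to 1286 nt, and those of the 3 measured H2A.Z genes from 1250 to 1709 nt. All 4 measured cellulose synthase genes were marked, from CESA1 (AT4G32410) at 3.77 and 3.55 to CESA5 at 4.66 and 5.41. CESA4, CESA9 and CESA10 were not measured and had no peak in either replicate. Measured expansins and xyloglucan-modifying XTH genes were marked in 2 of 19, with a peak in 1 replicate in 4 others. Together the measured genes had 6 of 23 marked, against a length background of 68.7%. Of the 43 genes of this list that were not measured, 0 held a shared peak. The measured cellulose synthase genes had a median length of 5750.5 nt and the other measured genes of 1882 nt, at median levels of 26 and 23.5 TPM.

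Photosynthesis genes carried peaks of another shape than most genes did. A shared peak lay in 43 of 53 genes (81.1%) for light harvesting, photosystem subunits and the Calvin cycle. Only 1 of the 53 kept a peak of at least 3-fold in both replicates. The length backgrounds were 54.0% for the light-harvesting and photosystem lists and 78.9% for the Calvin cycle list. The 53 genes had a median length of 1491 nt, against 2362 nt for all measured genes. Their peaks covered a median of 44.1% of the gene, against 14.9% for all placements. The peaks were 689 nt long at the median and had a median place of 69.6%. In light-harvesting genes the peaks were 535 to 1235 nt long and none of the 13 lay in the last 20%. LHB1B2 (AT2G34420), a chlorophyll-binding antenna protein of photosystem II, had 963 nt of peak in a gene of 1045 nt, with folds of 2.1 and 1.4 at 7954 and 6573 TPM. RBCS1A (AT1G67090), the small subunit of Rubisco, had 965 nt at 2.04 and 1.49. The folds were lower in replicate 2 in 38 of the 43 genes, opposite to the usual shift between replicates. These genes had a median level of 1434 TPM, against 14.9 TPM for all measured genes, and the part of that level in the length and fold of their peaks was not tested. CAB1 and CAB3 are near-identical copies whose reads the authors' mapping could split, so their peaks are uncertain. GRP7 (AT2G21660), a clock-controlled RNA-binding protein at 3026 and 2306 TPM, had a peak of the same kind, with 2.07 and 1.44. The 3 peaks in cold and dehydration genes were alike, with medians of 776 nt, 55.5% of the gene and folds of 1.84 and 1.64. Ribosomal protein peaks covered a median of 30.2% of the gene. Lhca5 (AT1G45474), at 118 and 85.7 TPM, had 3.15 and 3.39.

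The most abundant genes without any peak were often high in a single library. AT5G66675 led with 18788 and 39184 TPM, followed by SDS (AT1G14750), a meiotic cyclin, with 4248 and 7459 TPM, and AT1G55947 with 4956 and 6746 TPM. AT4G00695 had 2249 and 3293 TPM. AT2G15345 had 17.5 TPM in replicate 1 and 3538 in replicate 2, AT5G66840 8.68 and 2767, and AT3G17712 3.56 and 1335. The most abundant genes with a peak were RBCS1A, LHB1B2, LHCA1, AT4G15830, LHCA4, LHCA2, CAB3, AT5G25070, PSBR and CAB1, of which 8 are photosynthesis genes with peaks of 799 to 1498 nt. AT4G15830 differed from them with a peak of 334 nt and folds of 8.34 and 17.2. Its peak lay at 98.2% of the gene, at -1368 nt from its strongest poly(A) cluster, where a negative value is downstream.

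CPSF70, the protein of the study, had CLIP peaks on part of the map. Shared CLIP peaks are those of replicate 1 that a CLIP peak of replicate 2 overlapped. They lay on 2835 of the 11410 shared m6A peaks (24.8%), and 3183 of the 6414 shared CLIP peaks (49.6%) overlapped a shared m6A peak. By fold, the share of m6A peaks with CLIP went from 36.0% in the lowest quartile to 15.5% in the highest. That order is over all 11410 shared peaks, whereas bins of gene level hold only peaks in measured genes. The 4333 shared peaks of other protein-coding genes, with median folds of 4.92 and 7.09, had CLIP on 13.3%. The part of level in the overall order was not tested. In 7 of the 10 bins of level, peaks above the bin's median fold had CLIP more often than those below it, the reverse of the overall order. In the rest they had it less often. The shares were 12.7 and 12.9% in the lowest bin, 25.3 and 17.9% in the third, 26.1 and 17.2% in the fourth, where the gap was widest, and 62.7 and 61.7% in the highest. The background used for calling CLIP peaks is unknown here, the line overexpresses the protein, and CLIP libraries of Col0 were not analysed here.

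In the cpsf70 mutant, site use was compared beside the map, and the difference between genes with and without m6A was not tested. Use of the 2 most abundant poly(A) sites, as log2 of distal over proximal TPM with 1 added to each, could be compared in 1756 genes listed in all 4 libraries. Among the 1334 with a shared peak the medians were 1.36 and 1.29 in Col0 and 1.17 and 0.85 in cpsf70, and among the 257 with no peak they were 0.76 and 0.70 in Col0 and 0.73 and 0.41 in cpsf70. The median change was -0.40 with a shared peak, -0.38 with no peak and -0.41 over all genes. In the 165 genes with a peak in 1 replicate it was -0.62. With limma and Benjamini-Hochberg adjusted p under 0.05, 13 genes (0.74%) shifted toward the proximal site. Of these, 10 carried a shared peak, as did 1334 of the 1756 tested. limma called 0 genes (0%) toward the distal site, where 65 had an unadjusted p under 0.05, against 266 toward the proximal site. The count depends on single libraries: it was 2 without Col0 replicate 2 and 22 without cpsf70 replicate 1.

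The 10 called genes with a shared peak had from 1.97-fold to 6.41-fold enrichment at their peaks in replicate 2. PKP-BETA1 (AT5G52920), a subunit of plastid pyruvate kinase, had a peak of 3.92 and 4.36 at chr5:21466419-21466827. Its site use was -1.04 and -0.92 in Col0 and -5.26 and -5.01 in cpsf70, a log2 change of -4.16 ± 0.34 (SE, limma, adjusted p = 0.0170). The 2 genotypes did not overlap. PRPL28 (AT2G33450), a plastid ribosomal protein, had 3.81 and 4.82 against 0.07 and -1.10, a change of -4.83 (adjusted p = 0.0296, limma), with a peak of 2.92 and 3.14. GPX2 (AT2G31570), a glutathione peroxidase, changed by -3.77 and SAM-2 (AT4G01850), which makes S-adenosylmethionine, the methyl donor of m6A, by -2.62. The others were AT2G04900, AT3G04840, AT3G56310, AT5G62350, AT5G06370 and AT5G24490, with changes from -4.37 in AT3G04840 to -2.57 in AT5G24490. Of the 3 called genes without a shared peak, HOG1 (AT4G13940), which removes S-adenosylhomocysteine, had a peak in 1 replicate and the largest change, -5.83. AT1G09310 also had a peak in 1 replicate, and PMEPCRA had none. These 3 were chosen after their values were seen.

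Gene totals over poly(A) sites had medians near 0 in both classes. The median log2 change was 0.01 for 6077 genes with a shared peak and 0.08 for 1710 with no peak. limma called 24 of 8364 genes higher (0.287%) and 127 lower (1.52%), of which 11 and 97 carried a shared peak. Among genes with no peak, 11 were higher and 24 lower. limma fitted a single spread for all genes here, so a gene extreme in 1 library can be called. The count was 100 without cpsf70 replicate 1. The largest fall was AT4G00695, one of the abundant genes without a peak, from log2 values of 11.14 and 11.68 in Col0 to 1.29 and 2.03 in cpsf70. In the authors' deposited table of genes with RNA-seq differences, 13 of 51 measured genes listed as higher in cpsf70 carried a shared peak (25.5%), and 10 of 19 listed as lower (52.6%). Both shares lie below the 71.8% of all measured genes. The deposited table is a preselected list with no background of its own, and the lengths of its genes were not compared.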

How the data were processed

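Members and gene lists were chosen with earlier results of these data known. The submitters' processing notes name MACS2 2.2.5, HISAT2 2.1.0 and cutadapt 1.18, with build TAIR10, but no roles or settings. For each replicate, the authors deposited a list of peaks (m6A or CLIP) with a fold (ratio) enrichment and −log10 p-values, per the file headers, and poly(A) clusters in TPM, of which the Col0 tables list those of at least 3 TPM. The authors also deposited an RNA-seq list with FPKM, a fold and a p-value. No file holds counts, so depth is unknown.

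Peak positions are TAIR10 as the authors gave them. The RefSeq gene table of TAIR10.1 supplied names and spans, without strand. A peak belonged to a gene that held its midpoint, and a cluster to a gene within 200 nt of its span on its strand. Direction was the strand of at least 90% of Col0 tags in the outer 300 nt of each end (at most 40% of the span) and 200 nt beyond, with at least 3 TPM. This rule was set after seeing the data and matched 141 of 143 clone names with a strand. List members were matched by locus and name (323 of 329) or by family symbol.

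Poly(A) clusters of the 4 libraries were joined on each strand at gaps of up to 24 nt, and sites listed in all 4 were kept. limma 3.58.1 (R 4.3.3, eBayes, 2-sided) tested log2 values with a pseudocount of 1, which understates changes of low values, and was tested on simulated data. Both cpsf70 tables carry the same internal name but different values and were used as 2 libraries. Genes were named by fold, number of peaks, level, peak length and calls with a peak, and list members as examples, many chosen after their values were seen. Sequences were not analysed here, and 1 gene family is not reported.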

Additional observations from a re-analysis of the deposited data

Results flagged for a closer look

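Peaks on the organelle genomes lie outside the nuclear map. Replicate 1 listed 31 peaks on the plastid genome, with a median fold of 1.64 and a highest of 2.08, and replicate 2 listed 9, with a median of 1.35. On the mitochondrial genome replicate 1 listed 6, with a median fold of 1.57. They were looked at because they are signal in data the comparisons do not use. Replicate 2 listed none on the mitochondrial genome.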

How the results depend on the processing

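The share of measured genes with m6A was 68.7% where peaks had to share 50% of both lengths, 57.3% with a fold of at least 3 in both replicates, 76.0% with any overlap with the gene, 66.7% with peaks in a single gene, and 68.0% with direction read from the outer 40% of the gene and inner tags, an alternative chosen after seeing the data. With either replicate alone it was 72.8 to 76.5%, genes with 2 or more peaks 4.37 to 8.33%, median length 355 to 357 nt, and CLIP on 23.6 to 23.8% of peaks. With a fold of at least 3, length was 378 nt, CLIP was on 22.8% and 14 lists stood above all genes, against 25. With at least 20 TPM in both Col0 libraries, 14 did, of the fewer lists that still had 5 measured genes, and 3 lists had none. The median place stayed between 89.0 and 90.8% in all 5 alternatives run. Of the 43 lists, 21 stayed on the same side of all genes in each of the 9 settings in which they had a measured gene. At 3-fold, photosystem genes were at 0 of 20 and light-harvesting genes at 1 of 18. No summits were listed, so that alternative was not run.

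Site use called 8 genes at a mean of at least 10 TPM, 24 with robust eBayes, chosen after seeing the data, and 42 with the replicate block, whose numbers did not pair the samples (correlation of deviations 0.05). Without single libraries it called 2 to 22. Gene totals called 40 genes with the replicate block and 100 to 133 without single libraries. The median changes of genes with a shared peak and with no peak moved by less than the spread between replicates in every setting.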
